A study of Mus musculus with 4 samples.

Results

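The genes of Wnt signalling were examined in MG5 cells, an established line of mouse microglia, the resident macrophages of the brain. They were chosen by gene symbol: every Wnt ligand, Frizzled receptor and Dickkopf gene of the table, and the secreted frizzled-related genes with an Sfrp symbol. To these were added 16 named coreceptors, transducers, regulators and transcription factors. This gave 54 genes of 45777 in the table. Frzb, a secreted frizzled-related gene under another symbol, was read with the other pathway genes. No threshold on a measured value was used, but the group was selected on the read counts of 6OHA against control in the sense that results of this comparison, among them the fall of Dkk2, were in view when it was put forward. Its differences are a description and are not read as support for an effect on the pathway.

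RNA-seq had been carried out on 4 libraries of cells labelled WT, all grown in a medium that held a share of supernatant from the astrocyte-like line A1. Replicates 1 and 3 of the treated group were exposed for 6 h to 10 µM of the compound 6OHA, which the submitters describe as a synthetic agonist of the retinoid X receptor. Replicates 1 and 2 of the control group were left untreated, with no mention of a solvent. Separate cultures are not stated, so the spread behind every p-value could be that of technical repeats of 1 cell line.

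Wnt proteins are secreted, lipid-modified signals that bind a Frizzled receptor together with the coreceptor Lrp5 or Lrp6. Binding stops a complex of Axin, Apc and the kinase Gsk3b from marking β-catenin for destruction, and β-catenin then joins TCF/LEF factors on target genes. Dickkopf proteins, secreted frizzled-related proteins and Wif1 are secreted modulators, most of them known as inhibitors, and in microglia the pathway has been linked to proliferation, survival and inflammatory state.

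Total counts ran from 31057950 to 42541641 per library, so a gene at 0 counts could lie at up to 0.0705 to 0.0966 counts-per-million (CPM), a limit of 3 counts per library that covers counting error only. All 12 microglia or macrophage markers were tested, with a summed level of 7727 and 7998 CPM in 6OHA and of 7559 and 7943 CPM in control. No count of the fibroblast markers exceeded 4 in a library. Of 8 astrocyte markers, Gfap, Aqp4 and Sox9 were at 0 in all libraries. The summed level, nearly all of it Aldh1l1 and Slc1a2, was 15.1 and 16.7 CPM in 6OHA against 22.6 and 23.4 CPM in control. It was lower in the treated cells as Dkk2 was. Aldh1l1 and Slc1a2 did not pass in edgeR's test (adjusted p = 0.128 and 0.101). Of 7 neuron markers, Rbfox3, Syt1, Slc17a7 and Gad1 were at 0. The sum, nearly all of it Map2 and Snap25, was 9.61 and 10.2 against 15.1 and 16.4 CPM. Within these lists the microglial receptor gene Cx3cr1 was called lower (21.2 and 21.3 CPM against 38.3 and 36.2 CPM, log2 difference -0.81, adjusted p = 0.00257), and so was the neuron marker Map2 (6.23 and 6.70 against 11.2 and 10.7 CPM, -0.76, adjusted p = 0.0273), in the same direction as Dkk2. The oligodendrocyte lineage list, nearly all of it Mbp, summed to 96.1 and 100.1 against 77.8 and 80.4 CPM with Olig1, Olig2, Sox10, Mog and Pdgfra at 0, and the endothelial list, nearly all of it Kdr, to 215 and 215 against 235 and 259 CPM with Cldn5 at 0. The part of these genes in the results below was not tested. In bulk RNA, fewer cells with a transcript and less of it per cell cannot be told apart.

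Of the 54 genes, 26 had 0 counts in every library, 9 had at most 9 counts in any library, and 19 had enough to be tested. Of these 19, 1 fell, 0 rose and 18 did not pass at a Benjamini-Hochberg adjusted p under 0.05 in edgeR's quasi-likelihood test over all 14634 genes tested. The gene that fell was Dkk2, so this call rests on values known when the group was put forward and nothing is read from it. In that comparison 0.629% of all tested genes were called lower, 1.39% higher and 2.02% in either direction. At an unadjusted p under 0.05 there were 3 of the 19, namely Dkk2, Fzd4 and Tcf7l2, against 10.9% of all tested genes. The other tools called 0 of the 19 higher as well, both DESeq2 and limma-voom. The libraries of the groups did not overlap for 5 of the 19 (Dkk2, Fzd4 and Wnt6 lower, Tcf7l2 and Lrp5 higher), against 38.8% of all tested genes. The median log2 difference of the 19 was -0.08, beside -0.01 over all tested genes.

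**Figure D1:**
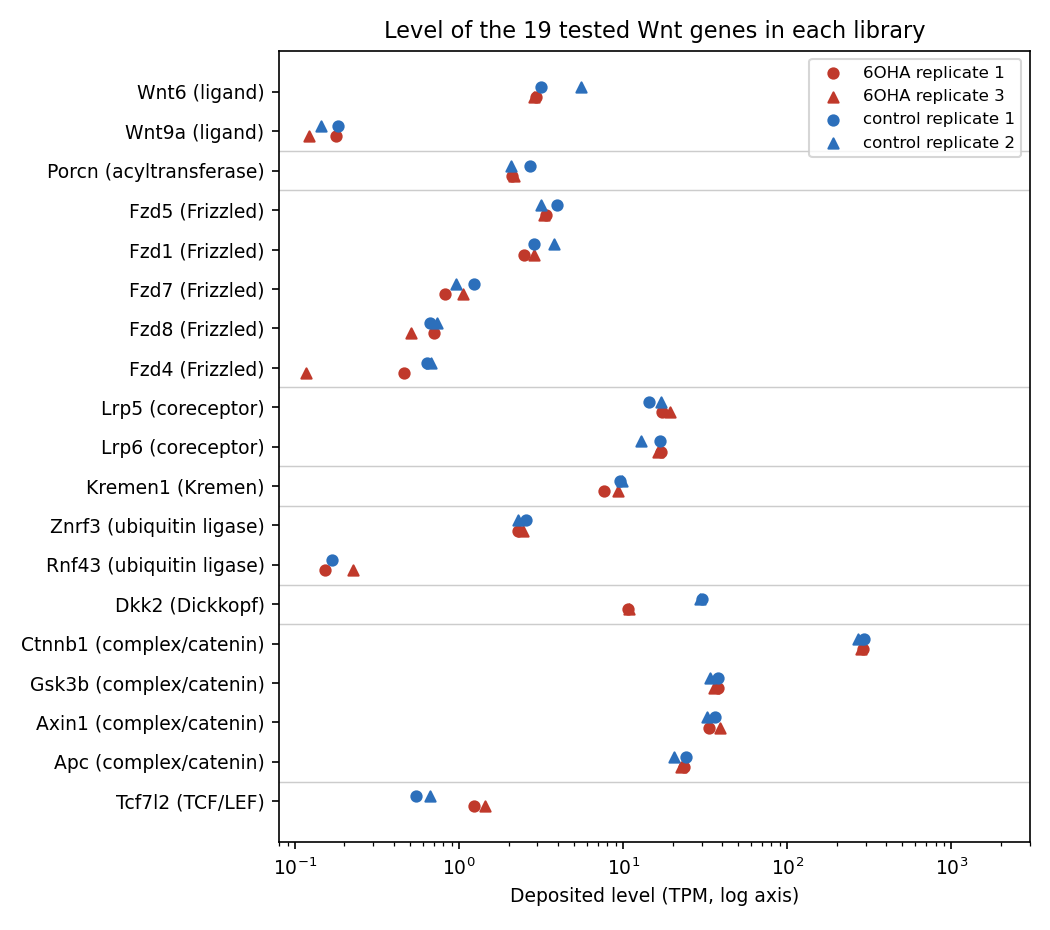
Deposited level in transcripts-per-million (TPM, log axis) of the 19 tested Wnt genes, one point per library, ordered by role. Dkk2 at 10.7 and 10.9 TPM in 6OHA lay apart from its controls at 30.3 and 29.4 TPM, β-catenin (Ctnnb1) lay near 283 TPM throughout, and Rnf43 in control replicate 2 was at 0 and is not drawn.

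Few Wnt ligands were detected. Of the 19 ligand genes, 14 had no count (Wnt1, Wnt2, Wnt3, Wnt3a, Wnt4, Wnt5a, Wnt5b, Wnt7a, Wnt7b, Wnt8a, Wnt8b, Wnt9b, Wnt11 and Wnt16). Wnt2b, Wnt10a and Wnt10b each had 2 counts in a single 6OHA library. Wnt6 was the most abundant ligand, at 2.92 and 2.81 CPM in 6OHA replicates 1 and 3 and at 3.03 and 5.48 CPM in control replicates 1 and 2. Both treated libraries were below both controls, but control replicate 2 stood well above the other 3 libraries, which lay within a narrow span. The difference was -0.54 on the log2 scale (SE 0.28, adjusted p = 0.557, 95% interval -1.17 to 0.09). With control replicate 2 left out it shrank to -0.08, and with replicate 1 of the controls left out it widened to -0.93. Wnt9a had 9, 7, 13 and 8 counts in 6OHA replicates 1 and 3 and control replicates 1 and 2, and its groups overlapped (log2 difference -0.15, interval -1.49 to 1.19).

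Porcn, the acyltransferase that attaches the lipid Wnt proteins need for secretion, was at 2.11 and 2.32 CPM in 6OHA and at 2.77 and 2.10 CPM in control. The libraries of the groups were interleaved, and the interval of the log2 difference ran from -0.70 to 0.40. Wls, the carrier that brings lipid-modified Wnt proteins to the cell surface, is not one of the 54 genes and was far more abundant, at 173 and 158 CPM against 177 and 153 CPM, with a log2 difference of 0.00 (adjusted p = 0.995).

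Of the 10 Frizzled receptor genes, 5 were tested, Fzd2 and Fzd9 had at most 3 counts in a library, and Fzd3, Fzd6 and Fzd10 had none. Fzd5 was at 11.0 and 10.6 CPM in 6OHA and at 12.5 and 10.2 CPM in control, and Fzd1 at 5.13 and 5.87 against 5.73 and 7.87 CPM. For both receptors the groups overlapped, with log2 differences of -0.08 (interval -0.41 to 0.25) and -0.29 (interval -0.73 to 0.15). Per transcript length these were also the leading receptors, at means over the 4 libraries of 3.44 TPM for Fzd5 and 3.00 TPM for Fzd1, which do not differ beyond the spread of their libraries, followed by 1.02 TPM for Fzd7, 0.653 TPM for Fzd8 and 0.472 TPM for Fzd4. Of the distinct 31-base stretches of Fzd5 transcripts, 17.2% also occur in other genes, chiefly Gm38058, whose exons cover 1233 of 6915 exon bases on the opposite strand. Since the strand setting of the counting is not given in the sources used here, the level of Fzd5 is uncertain to that extent.

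Fzd4, a receptor that also binds the non-Wnt ligand norrin, had 25 and 8 counts in 6OHA replicates 1 and 3 and 47 and 41 counts in control replicates 1 and 2. These correspond to 0.814 and 0.229 CPM against 1.10 and 1.18 CPM. Both treated libraries were lower than both controls, and replicate 3 was the lowest by a wide margin. The log2 difference was -1.17 (SE 0.47, adjusted p = 0.382), and it was -0.48 without 6OHA replicate 3 and -2.29 without 6OHA replicate 1. Fzd7 and Fzd8 had log2 differences of -0.20 and -0.19, so all 5 tested Frizzled genes had values below 0, as had 51.4% of all tested genes. None of the 5 passed, and Fzd5 was at 0.08 without control replicate 1.

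The coreceptors were more abundant than any Frizzled receptor. Lrp6 was at 74.5 and 71.4 CPM in 6OHA and at 71.8 and 56.9 CPM in control, where control replicate 2 was the low library and the groups overlapped (log2 difference 0.18, interval -0.08 to 0.44). Lrp5 was at 41.7 and 45.0 CPM against 32.9 and 40.9 CPM, with both treated libraries above both controls by a margin smaller than the gap between the controls (log2 difference 0.24, SE 0.12, adjusted p = 0.560). Per length the coreceptors were alike, at 16.9 TPM for Lrp5 and 15.8 TPM for Lrp6 over the 4 libraries.

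Kremen1, a receptor that binds Dickkopf proteins and with them removes Lrp6 from the cell surface, was at 17.5 and 20.9 CPM in 6OHA and at 20.8 and 22.7 CPM in control. The treated replicate 3 lay between the controls, and the log2 difference was -0.18 (interval -0.47 to 0.11). Of the ubiquitin ligases that clear Frizzled receptors from the membrane, Znrf3 was at 7.43 and 8.22 CPM against 8.34 and 7.55 CPM (log2 difference -0.02, interval -0.37 to 0.32). Rnf43 had 10 and 16 counts in 6OHA and 15 and 0 in control, too few to place its difference (interval -0.78 to 2.82).

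Among the secreted inhibitors Dkk2 made up nearly all counts. Of the 10 genes, 7 had no count (Dkk1, Dkk3, Dkk4, Dkkl1, Sfrp1, Sfrp2 and Wif1). Sfrp4 had 6 counts in control replicate 2 and Sfrp5 had 4 in control replicate 1, each with 0 elsewhere. Dkk2 therefore held 99.7% to 100% of the summed counts of this role in each library.

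Dkk2 encodes a Dickkopf protein that binds Lrp5 and Lrp6 and, depending on the presence of Kremen, has been described as an inhibitor or a weak activator of the pathway. It had 575 and 661 counts in 6OHA replicates 1 and 3 and 2204 and 1791 counts in control replicates 1 and 2, or 18.7 and 18.9 CPM against 51.4 and 51.6 CPM. The libraries within each group were nearly the same, and the groups lay far apart. Any control library was 2.71 to 2.76 times any treated library. The log2 fold change was -1.45 (SE 0.11) and ranged from -1.49 to -1.32 over 15 alternative settings. Since this fall was among the results known when the group was put forward, these values are a description of the 4 libraries and support nothing beyond them.

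Per transcript length Dkk2 was at 30.3 and 29.4 TPM in the control libraries, above its coreceptors Lrp5 at 14.3 and 16.9 TPM and Lrp6 at 16.8 and 12.8 TPM. In the 6OHA libraries it was at 10.7 and 10.9 TPM, below Lrp5 at 17.2 and 19.2 TPM and Lrp6 at 17.1 and 16.4 TPM. The order of Dkk2 and coreceptor transcripts was thus opposite in the treated and control libraries. This rests on the fall of Dkk2 that was known beforehand, and nothing is read from it. Lrp5 and Lrp6 did not pass in edgeR's test (adjusted p = 0.560 and 0.702).

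**Figure D2:**
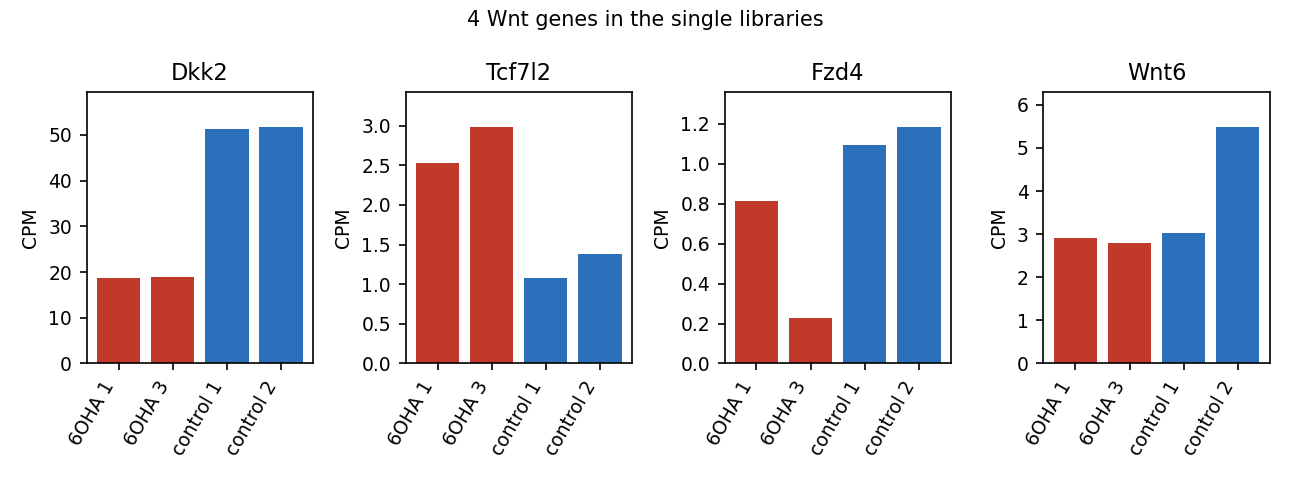
Level in CPM of Dkk2, Tcf7l2, Fzd4 and Wnt6 in each library (bars from 0, red for 6OHA replicates 1 and 3, blue for control replicates 1 and 2). The bars within a group are even for Dkk2, while Fzd4 is lowest in 6OHA replicate 3 (0.229 CPM) and Wnt6 highest in control replicate 2 (5.48 CPM).

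Dkk2 lies on chromosome 3 from 132085266 to 132180304 on GRCm38, the assembly that mm10 names. Its exons overlap no other annotated gene, and 1.91% of its 31-base stretches occur elsewhere. The 250 bases before the transcript start used in the promoter table (chr3:132085042-132085291, plus strand, RefSeq on GRCm38.p6) are shown, a window that ends inside the annotated span of the gene, because Dkk2 differed most among the tested genes of the group. Capitals mark a TATA box (TATAAA, searched on the gene's strand), which 7.59% of 32851 promoter windows of this length hold.
Dkk2 promoter: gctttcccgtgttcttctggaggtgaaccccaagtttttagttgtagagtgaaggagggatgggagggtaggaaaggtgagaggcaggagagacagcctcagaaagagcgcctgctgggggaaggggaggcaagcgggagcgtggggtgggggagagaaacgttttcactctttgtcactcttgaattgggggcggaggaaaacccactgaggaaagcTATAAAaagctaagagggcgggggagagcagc

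The stretch held no nuclear receptor half-site (AGGTCA, either strand), a motif present in 14.0% of all such windows, and no TCF/LEF site (CTTTGNN with A or T at each N, either strand), present in 14.8%. There were 14 windows, for 11 of the 19 tested genes. Of these 11 genes, 0 had the half-site and 3 had the TATA box (Ctnnb1, Dkk2 and Fzd1). The TCF/LEF site was in 2 of them (Fzd7 and Tcf7l2). The percentages are per window, not per gene. A search of this kind describes letters in a short window and says nothing of where a factor binds.

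The cytoplasmic part of the pathway was abundant and differed little. Ctnnb1, which encodes β-catenin, was at 489 and 479 CPM in 6OHA and at 485 and 458 CPM in control, and both treated libraries were close to control replicate 1. Its log2 difference was 0.04, with an interval of -0.15 to 0.23. Of its 31-base stretches, 13.2% are shared with Ulk4, which overlaps it on the opposite strand. Gsk3b, the kinase that marks β-catenin, was at 147 and 140 CPM against 143 and 132 CPM, with groups that overlapped (interval -0.14 to 0.27). The scaffold genes Apc and Axin1 had log2 differences of 0.09 (interval -0.13 to 0.32) and 0.07 (interval -0.17 to 0.32). For these 4 genes the intervals do not reach a change of the size seen in Dkk2 in either direction. They cover only the spread of these libraries, which could be that of technical repeats.

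Axin2, a scaffold gene that is itself a widely used readout of β-catenin activity, had 0 and 0 counts in 6OHA and 2 and 9 counts in control. Most of these few counts came from control replicate 2, the gene was too low to be tested, and with no filter on low counts it did not pass (unadjusted p = 0.0658, adjusted p = 0.649). A difference was not detectable at this depth.

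Among the 4 TCF/LEF factors, Tcf7l1 and Lef1 had no count and Tcf7 had 2 counts in 6OHA replicate 3 and 3 in control replicate 1. Tcf7l2, the remaining factor, had 78 and 104 counts in 6OHA and 46 and 48 in control, or 2.53 and 2.98 CPM against 1.07 and 1.38 CPM. Both treated libraries were above both controls, and the gap between the groups was larger than that within either. The log2 difference was 1.19 (SE 0.27, 95% interval 0.59 to 1.78), and it narrowly did not pass (adjusted p = 0.0542). It passed without 6OHA replicate 1 (adjusted p = 0.0279), without control replicate 2 (0.0377) and with an offset for the GC content of transcripts (0.0172). It did not pass without 6OHA replicate 3 (0.221), without control replicate 1 (0.159), under DESeq2 (0.118) or under limma-voom (0.0804), and the adjusted p ran from 0.0172 to 0.221 over all alternatives that kept the gene. Its level was low, at 1.34 TPM in 6OHA and 0.605 TPM in control, and on the log2(TPM + 1) scale, which understates the change of low genes, the difference was 0.54.

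Tcf7l2 (chromosome 19, 55741797 to 55933659) had windows before 2 annotated starts in the table. They are shown because this is the one TCF/LEF gene above a few counts and the gene of the group with the largest difference upward. The counts are per gene and do not show which start was used. The upstream window lies at chr19:55741560-55741809, which ends inside the annotated span of the gene, and the internal one at chr19:55895071-55895320, both on the plus strand of GRCm38.p6. Capitals in the internal window mark a TCF/LEF site (CTTTGTT), and neither window held the half-site or the TATA box.
Tcf7l2 upstream start: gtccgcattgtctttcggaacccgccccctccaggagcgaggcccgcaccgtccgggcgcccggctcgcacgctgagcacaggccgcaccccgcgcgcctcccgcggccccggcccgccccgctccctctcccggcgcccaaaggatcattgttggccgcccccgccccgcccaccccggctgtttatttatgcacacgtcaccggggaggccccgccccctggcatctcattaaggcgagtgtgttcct
Tcf7l2 internal start: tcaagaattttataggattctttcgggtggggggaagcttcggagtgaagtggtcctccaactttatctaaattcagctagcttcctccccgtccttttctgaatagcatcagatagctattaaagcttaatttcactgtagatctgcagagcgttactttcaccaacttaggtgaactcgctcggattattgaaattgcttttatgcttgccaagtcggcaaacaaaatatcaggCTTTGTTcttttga

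**Figure D3:**
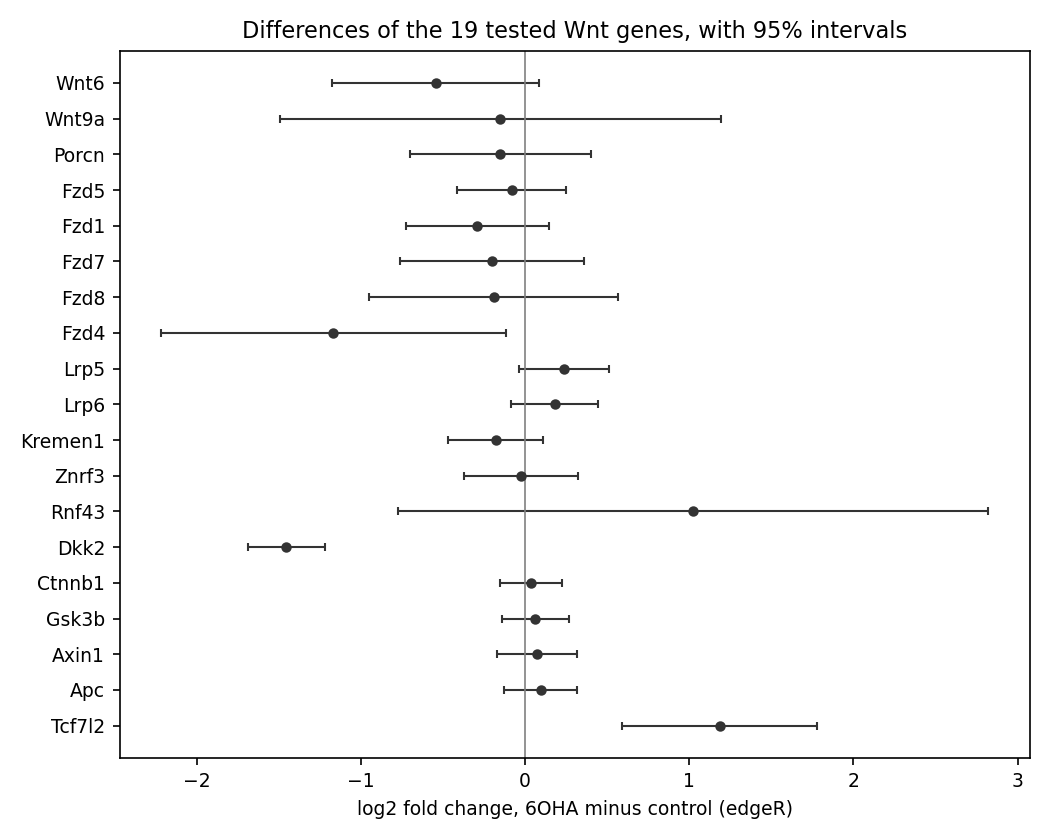
Log2 fold change of the 19 tested Wnt genes, 6OHA minus control, from edgeR's quasi-likelihood fit, with 95% intervals (bars). Dkk2 at -1.45 and Tcf7l2 at 1.19 lie farthest from 0, the 4 genes of the destruction complex and β-catenin lie between 0.04 and 0.09, and low genes such as Wnt9a, Rnf43 and Fzd4 have wide intervals.

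The rest of the pathway was read from a list of 70 further genes present in the table, among them carriers, other receptors, R-spondins, kinases, Axin regulators, nuclear cofactors and planar polarity genes. Of these, 24 had no count, 7 were too low and 39 were tested. In edgeR's test 0 rose, 0 fell and 39 did not pass. At an unadjusted p under 0.05 there were 2 of the 39, a smaller share than the 10.9% of all tested genes. DESeq2 called 2, against 3.46% of all genes it gave an adjusted p, and limma-voom called 0, against 1.84%. The median log2 difference was 0.01.

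The genes with an unadjusted p under 0.05 were Tle4 and Ctnnbip1, and neither passed in edgeR's test. Tle4, a corepressor that TCF/LEF factors recruit, was at 27.6 and 24.4 CPM in 6OHA and at 18.2 and 18.0 CPM in control, so that both treated libraries were higher. Its log2 difference was 0.52 (SE 0.12, adjusted p = 0.0603). Ctnnbip1, which encodes a small protein that keeps β-catenin from TCF/LEF factors, was at 33.6 and 37.1 CPM against 47.6 and 46.3 CPM, lower in both treated libraries, with a log2 difference of -0.41 (SE 0.11, adjusted p = 0.0940). These are the genes that DESeq2 called (adjusted p = 0.0208 and 0.0393). The next by p-value, Apc2 at -1.16 (adjusted p = 0.505) and Celsr2 at -1.37 (adjusted p = 0.614), had at most 40 counts in a library.

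A list of 36 genes commonly cited as targets of β-catenin and TCF/LEF factors was also read, of which 6 are among the 54 genes. Of the 36, 17 had no count, 4 were too low and 15 were tested. In edgeR's test 0 rose, 0 fell and 15 did not pass. At an unadjusted p under 0.05 there were 5 of the 15, against 10.9% of all tested genes, while DESeq2 called 3, against 3.46%, and limma-voom 0, against 1.84%. Among the 13 tested targets outside the 54 genes, 11 had log2 differences below 0, against 51.4% of all tested genes, with a median of -0.13 beside -0.01. Some of the 11 lay near 0, such as Nrcam at -0.02 and Myc at -0.04. The list was chosen with earlier results of these data known, so these counts are a description and no shift of the targets is read from them.

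The kinase-like adaptor gene Trib2 was at 10.5 and 11.2 CPM in 6OHA and at 16.9 and 15.7 CPM in control (log2 difference -0.58, SE 0.13, adjusted p = 0.0542). With a library left out, the difference of Trib2 ran from -0.64 without control replicate 2 to -0.53 without control replicate 1. Plaur, the urokinase receptor gene, was at 208 and 239 CPM against 270.0 and 362 CPM (-0.50, adjusted p = 0.108). Its difference was -0.28 without control replicate 2, -0.40 without 6OHA replicate 1, -0.60 without 6OHA replicate 3 and -0.70 without control replicate 1. The AP-1 gene Jun was at 93.4 and 110 CPM against 122 and 148 CPM (-0.41, adjusted p = 0.165). The difference of Jun was -0.26 without control replicate 2, -0.29 without 6OHA replicate 1, -0.53 without 6OHA replicate 3 and -0.54 without control replicate 1. In each of these genes both treated libraries were below both controls. Ccnd1, which encodes cyclin D1, was at 545 and 591 CPM against 679 and 697 CPM (-0.28, adjusted p = 0.203), again without overlap. Of the 15 tested targets, 9 had groups without overlap, 7 lower and 2 higher, against 38.8% of all tested genes. The higher ones were Cd44, at 742 and 697 CPM against 677 and 631 CPM (0.14, adjusted p = 0.692), and Id2, at 148 and 150 CPM against 130 and 140 CPM (0.14, adjusted p = 0.696). Trib2, Plaur and Jun were the targets that DESeq2 called (adjusted p = 0.0339, 0.00773 and 0.0468). With the GC offset these, Ccnd1 and Jag1 passed in edgeR. That setting called 804 of all 14634 tested genes, beside 295 without the offset. Myc, at 67.8 and 70.9 CPM against 62.2 and 80.3 CPM, had groups that overlapped (-0.04, adjusted p = 0.969). Notum, Nkd1, Sp5 and Lgr5, also on the list, were at 0 counts in all libraries, so that no difference was detectable for them at this depth.

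**Figure D4:**
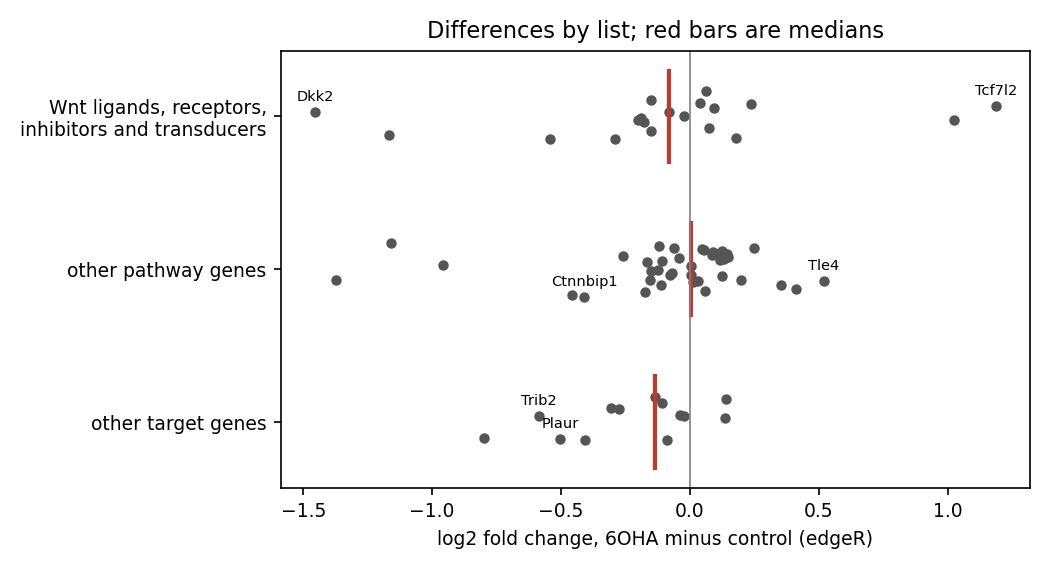
Log2 fold change, 6OHA minus control, of the tested genes of 3 lists (points, spread vertically for clarity), with the median of each list as a red bar. The medians are -0.08 for the 19 Wnt genes, 0.01 for 39 other pathway genes and -0.13 for 13 targets not among the 54 genes, and Dkk2 and Tcf7l2 lie at either end of their list.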

How the data were processed

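RNA-seq of poly-A RNA from 4 libraries was analysed. Counts were read counts per gene as deposited, per the file headers. FPKM and TPM values had been scaled by the authors for length and library size and were deposited beside them, per the file headers. The submitters' processing notes name the build mm10 and, with no roles, HISAT2 2.1.0, StringTie 2.1.3b, SAMtools 1.9, Trimmomatic 0.38, Bowtie2 and bcl2fastq 2.20.0. The counter and its strand setting are not given in the sources used here.

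In edgeR 4.0.16, filterByExpr left 14634 genes, which were scaled by TMM (factors 0.990 to 1.01) and fitted on group alone with the quasi-likelihood test, legacy mode off. CPM are TMM-scaled counts over the tested genes. SE is the log2 difference divided by the root of the F statistic, and 95% intervals come from the same fit. Libraries of a group were not copies (chi-square per degree of freedom 10.9 in 6OHA and 22.9 in control). Alternatives were DESeq2 1.42.0, limma 3.58.1 (voom, and log2 of FPKM plus 1 or 0.1 or of TPM plus 1), other scalings and filters, legacy mode, a smooth of log2 CPM on GC content (6 degrees of freedom, 93.4% of tested genes with a value), and each library left out. GENCODE M21 transcripts gave GC and shared 31-base stretches. R 4.3.3, Python 3.11.15, pandas 2.3.3 and matplotlib 3.10.9 were used.

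The genes and lists were chosen with earlier results of these data known. Named were genes past the threshold or with an unadjusted p under 0.05, the 2 most abundant of each role and, of other lists, the 4 with the smallest p. Others named were chosen after their values were seen.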

Additional observations from a re-analysis of the deposited data

How the results depend on the processing

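No paired analysis was possible because the groups share 1 replicate number. Of the 54 genes, the settings that kept all libraries called Dkk2, whose fall was known beforehand, and the GC offset called 2, Dkk2 and Tcf7l2. With a library left out, the count of the 54 genes ran from 1 to 2 (2 without 6OHA replicate 1 and without control replicate 2, both adding Tcf7l2), other pathway genes from 0 to 1 (Dact3, with 0 counts in control replicate 1, without control replicate 2), targets from 0 to 2 (2 without control replicate 1) and all genes from 265 to 500 (500 without control replicate 2), the lone library of a group being given the spread of the other. Other pathway genes called numbered 2 under DESeq2 and 2 of 39 with the GC offset. At a mean of at least 5 CPM there was 1 of 31 (Tle4). Targets called, all lower, numbered 1 of 15 with upper-quartile scaling and 1 of 12 at a mean of at least 5 CPM (Trib2 in both). They numbered 3 under DESeq2 and 5 of 15 with the GC offset. All genes called numbered 295 of 14634 as reported, 301 of 14634 with upper-quartile scaling and 804 of 14634 with the GC offset. They numbered 302 of 10338 at a mean of at least 5 CPM, 428 of 12364 under DESeq2 and 120 of 21286 with no filter. Of the same 14634 genes, 135 were called on log2(FPKM + 1), 149 on log2(FPKM + 0.1) and 152 on log2(TPM + 1). Small differences changed sign without a call: Ctnnb1 to -0.016 on log2(FPKM + 1) and -0.016 on log2(FPKM + 0.1). With a library left out, Ctnnb1 ran from -0.0038 to 0.080, Znrf3 from -0.095 to 0.055, Wnt9a from -0.42 to 0.11, Fzd5 from -0.21 to 0.076 and Porcn from -0.32 to 0.078. The cause was not tested. Depth limits Wnt9a, Rnf43, Fzd4 and Axin2.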

Other observations

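The neighbours of Dkk2 were read after the values of the gene were seen. Within 1000000 bases of Dkk2, 9 of 31 annotated genes were tested by edgeR and 0 were called, beside 2.02% of all tested genes. Their log2 differences ran from -0.30 for Arhgef38 to 0.51 for Npnt (adjusted p = 0.369). The nearest tested genes, Papss1 upstream and Aimp1 downstream, were at -0.01 and -0.04.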
